A study of Caenorhabditis elegans with 24 samples.

Results

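To ask how reduced insulin/IGF-1 receptor function shifts the transcriptome of the adult nematode, 4 libraries of daf-2(e1370) Caenorhabditis elegans were compared with 4 libraries of wild type (wt, strain N2). They are 8 of the 24 libraries of the study, and the other 16 carry the bcl-11 alleles bon125 or bon144 with or without daf-2(e1370). Whole animals had been grown at 20 °C on Escherichia coli OP50-1 and were taken on the first day of young adulthood, which all 8 libraries share. The daf-2(e1370) animals carry the e1370 allele of the receptor gene, and neither group carries a bcl-11 mutation. The labels give the genotype but not which daf-2(e1370) stock was sequenced, so other differences between the stocks cannot be told apart from the allele. The groups were deposited in 2 tables that had been normalised separately, wt with the single bcl-11 mutants and daf-2(e1370) with the double mutants. Of 18489 genes listed in both tables, 13131 had a mean of at least 3 over the 12 libraries of each table and were kept.

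DAF-2 is the receptor for the insulin-like peptides of the worm. When it is active, a cascade of the PI3 kinase AGE-1 and the kinases PDK-1, AKT-1, AKT-2 and SGK-1 keeps the FOXO transcription factor DAF-16 in the cytoplasm. When receptor signalling is weak, DAF-16 enters the nucleus and turns on genes for stress defence, fat handling and longevity, and strong loss of signalling sends larvae into the dauer state. Reduced function of daf-2 is known for long life, stress resistance, stored fat and a smaller, later brood.

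The values are regularized log (rlog) values on a log2 scale, in which a difference of 1 is a factor of 2. The median of a library over the kept genes lay between 7.69 and 7.78 in wt and between 7.88 and 7.98 in daf-2(e1370), an offset of 0.18 between the tables. Each library was therefore shifted so that all 8 had the same median, 7.83, and the levels given here are these centred values. A table offset and a shift of the whole transcriptome with genotype cannot be told apart, so no p-value is given between the genotypes. A gene was counted as higher or lower when its mean difference, daf-2(e1370) minus wt, was over a factor of 1.5 in size, and the 4 daf-2(e1370) libraries did not overlap the 4 wt libraries. The error after a difference is its standard error over 4 against 4 libraries. Rlog draws the libraries of a weakly expressed gene towards a common value within each table. Errors of such genes are therefore understated and the rule on overlap is easier to pass, while a difference between the tables need not be reduced. The median SD was 0.138 in wt and 0.118 in daf-2(e1370) for genes with a level below 4. It was 0.208 and 0.213 for levels between 10 and 12. The values are not divided by transcript length, so levels of different genes are not compared. The libraries also keep no strand, and 71 of the 212 genes named by rule overlap another annotated gene. Of the 212, 56 overlap a gene on the other strand and are uncertain to that extent. Examples are daf-16, age-1, akt-1, sod-3, col-19, col-74, col-121, cutl-18 and end-3. The same holds for some genes chosen after their values were seen, such as unc-38, col-119 and wrt-2.

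By this rule 1868 genes, 14.2% of the kept genes, were higher in daf-2(e1370) and 1753 genes, 13.4%, were lower, while 9510 were not counted. The median difference was 1.05 among the genes counted higher and -0.80 among those counted lower. Large differences were more often positive: 100 genes counted higher exceeded 3 and 26 genes counted lower lay below -3. A further 140 and 142 genes passed the size but overlapped between the groups. The median gene had a difference of -0.15 after centring, and weakly and strongly expressed genes differed: the median difference was 0.12 for genes with a mean level between 4 and 6 and -0.34 for genes between 10 and 12. Without centring, the median gene was at 0.03 and 2466 genes were higher and 913 lower, so that 73.0% of the counted genes were higher against 51.6% with centring. With a centring that followed the expression level the share was 63.5%, from 2044 higher and 1174 lower genes. Over all scalings tried, the number counted higher thus lay between 1689 and 2466 and the number counted lower between 913 and 1753. Medians of gene lists are therefore read against -0.15 rather than 0.

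**Figure D1:**
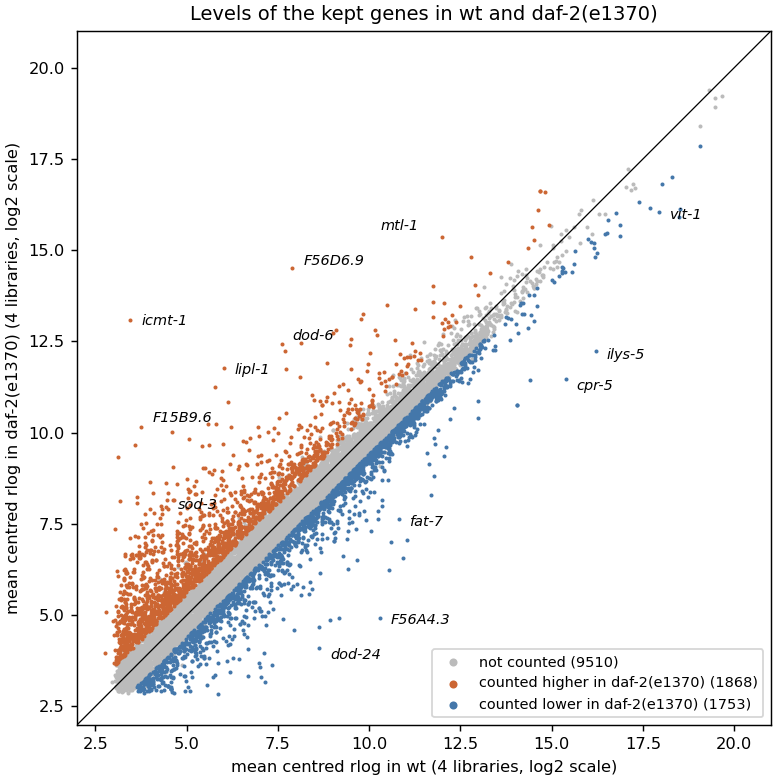
Mean centred rlog of each of 13131 genes in wt (x axis) and daf-2(e1370) (y axis), both on a log2 scale over 4 libraries, with the line of equal levels. Orange points are the 1868 genes counted higher, blue points the 1753 genes counted lower and grey points the 9510 others; icmt-1 lies farthest above the line and F56A4.3 farthest below it.

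Libraries of the same genotype correlated across genes with a Pearson's r of 0.988 to 0.996 in wt and 0.980 to 0.997 in daf-2(e1370), and libraries of different genotype with 0.934 to 0.964. The first principal component of the spread among the daf-2(e1370) libraries held 66.8% of it, with library 4 at 36.1, library 2 at 2.94 and libraries 1 and 3 at -19.3 and -19.8. Of 128 kept genes with an SD over 1 among the daf-2(e1370) libraries, 125 were highest in library 4, and 41 of them were cuticle collagens. Among 40 tissue marker genes, 38 were kept, so intestine, muscle, neurons, epidermis and germline were all represented in whole-animal RNA. Depth is unknown, since counts were not used.

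Most of the insulin signalling genes themselves were not counted, which also held for all kept genes. Of 13 kept genes, 2 were counted higher and 0 lower, 15.4% and 0% against 14.2% and 13.4% of all kept genes. Their median was -0.08 against -0.15 for all kept genes. Without centring it was 0.11 against 0.03. The receptor gene daf-2 was at 6.46, 6.55, 6.62 and 6.76 in wt and at 6.64, 6.33, 6.53 and 6.58 in daf-2(e1370), a difference of -0.08 ± 0.09 with overlapping groups. The e1370 mutation is a point mutation, and the transcript level does not check the label. Transcripts of daf-16 were at 10.3, 10.2, 10.1 and 10.3 in wt and at 9.99, 10.0, 9.99 and 9.76 in the mutant, -0.27 ± 0.08, below the size that counts. The PI3 kinase gene age-1 had a difference of -0.50 ± 0.18 with overlapping groups.

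The exceptions were a kinase and an adaptor. The kinase gene akt-2 was at 6.89, 7.05, 7.08 and 6.85 in wt and at 8.19, 8.51, 8.18 and 8.43 in daf-2(e1370), a difference of 1.36 ± 0.10 and a 2.57-fold higher level. Its paralogue akt-1 was not counted (0.10 ± 0.13). The insulin receptor substrate homologue ist-1 was higher by 0.82 ± 0.11, with 5.27 as the lowest wt library, 5.53 as the highest wt library and 6.12 as the lowest mutant library. The sgk-1 kinase gene, in contrast, had a difference of -0.48 ± 0.13.

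Insulin-like peptides formed the family with the largest share of genes counted higher. Of 39 ins genes in the genome 18 were kept, and 14 of these were counted higher and 0 lower, with a median of 1.28 that stayed between 1.07 and 1.47 under the other scalings. The 4 largest differences belonged to ins-23, ins-11, ins-22 and ins-33. Levels of ins-23 were 4.90, 5.21, 4.73 and 5.46 in wt and 9.63, 9.93, 9.69 and 10.1 in daf-2(e1370), a difference of 4.76 ± 0.20. For ins-11 the wt libraries lay between 4.36 and 4.51 and the mutant libraries between 7.58 and 9.41 (4.18 ± 0.39), and for ins-22 the mutant libraries, 9.99 to 10.4, lay far above the wt libraries, 5.97 to 6.44 (3.96 ± 0.15). The difference of ins-33 was 2.65 ± 0.28. Of genes chosen after their values were seen, ins-6, an agonist of DAF-2, was higher by 1.22 ± 0.16, ins-4 was just under the size that counts at 0.49 ± 0.11, and ins-36 had the only negative difference of the 18, -0.39 ± 0.09. The 6 neighbours ins-24, ins-26, ins-27, ins-28, ins-29 and ins-30 on chromosome I (chrI:14012369-14037777, WBcel235) were all counted higher, from 0.70 to 2.53. A peptide outside the kept genes went the other way: ins-19 had a mean of 5.62 in wt and of 1.56 in daf-2(e1370).

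Genes known to be induced by DAF-16 were mostly higher. Of 26 listed genes 22 were kept, 16 were counted higher and 0 lower, and the median was 1.12. The list's mean per library was 9.14 to 9.56 in wt and 10.6 to 11.2 in daf-2(e1370). The members with the largest differences were dod-6, sod-3, ftn-1 and mtl-1. The mitochondrial superoxide dismutase gene sod-3 was 14.6-fold higher, and the metallothionein gene mtl-1, which binds heavy metals, 10.3-fold. The ferritin gene ftn-1, which stores iron, was at 9.23, 9.31, 8.80 and 8.72 in wt and at 12.1, 13.3, 12.2 and 13.3 in daf-2(e1370), a difference of 3.73 ± 0.36. Levels of dod-6 were 7.22, 7.48, 7.92 and 7.82 against 12.0, 12.8, 12.0 and 12.9, 4.82 ± 0.30. In each of these genes daf-2(e1370) libraries 2 and 4 were above libraries 1 and 3, and no mutant library reached a wt library.

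Of the 6 members of the list that were not counted, 3 were small heat shock genes. The small heat shock protein genes hsp-16.2 and hsp-16.41, chosen after their values were seen, had differences of -0.56 ± 0.49 and -0.95 ± 0.63. In wt, hsp-16.41 was at 8.31 and 7.78 in libraries 1 and 3 and at 5.87 and 6.61 in libraries 2 and 4, so its spread within wt was wider than the difference. Of 13 kept small heat shock genes 3 were counted higher (23.1%) and 0 lower, against 14.2% and 13.4% of all kept genes. The 3 were all from the hsp-12 group: hsp-12.2 (2.04 ± 0.15), hsp-12.1 (1.74 ± 0.10) and hsp-12.6 (1.63 ± 0.10). The median of the 13 was -0.17 against -0.15 for all kept genes, and 0.01 against 0.03 without centring. Among 21 other chaperones 7 were lower (33.3%) and 0 higher, led by the mitochondrial hsp-6 (-1.15 ± 0.13), hsp-1 (-0.82 ± 0.12) and the chaperonin subunit genes cct-8 (-0.82 ± 0.17) and cct-2 (-0.76 ± 0.18). Under the other scalings 3 or 4 of the 21 were lower, and the median of -0.53 lay between -0.34 and -0.19.

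**Figure D2:**
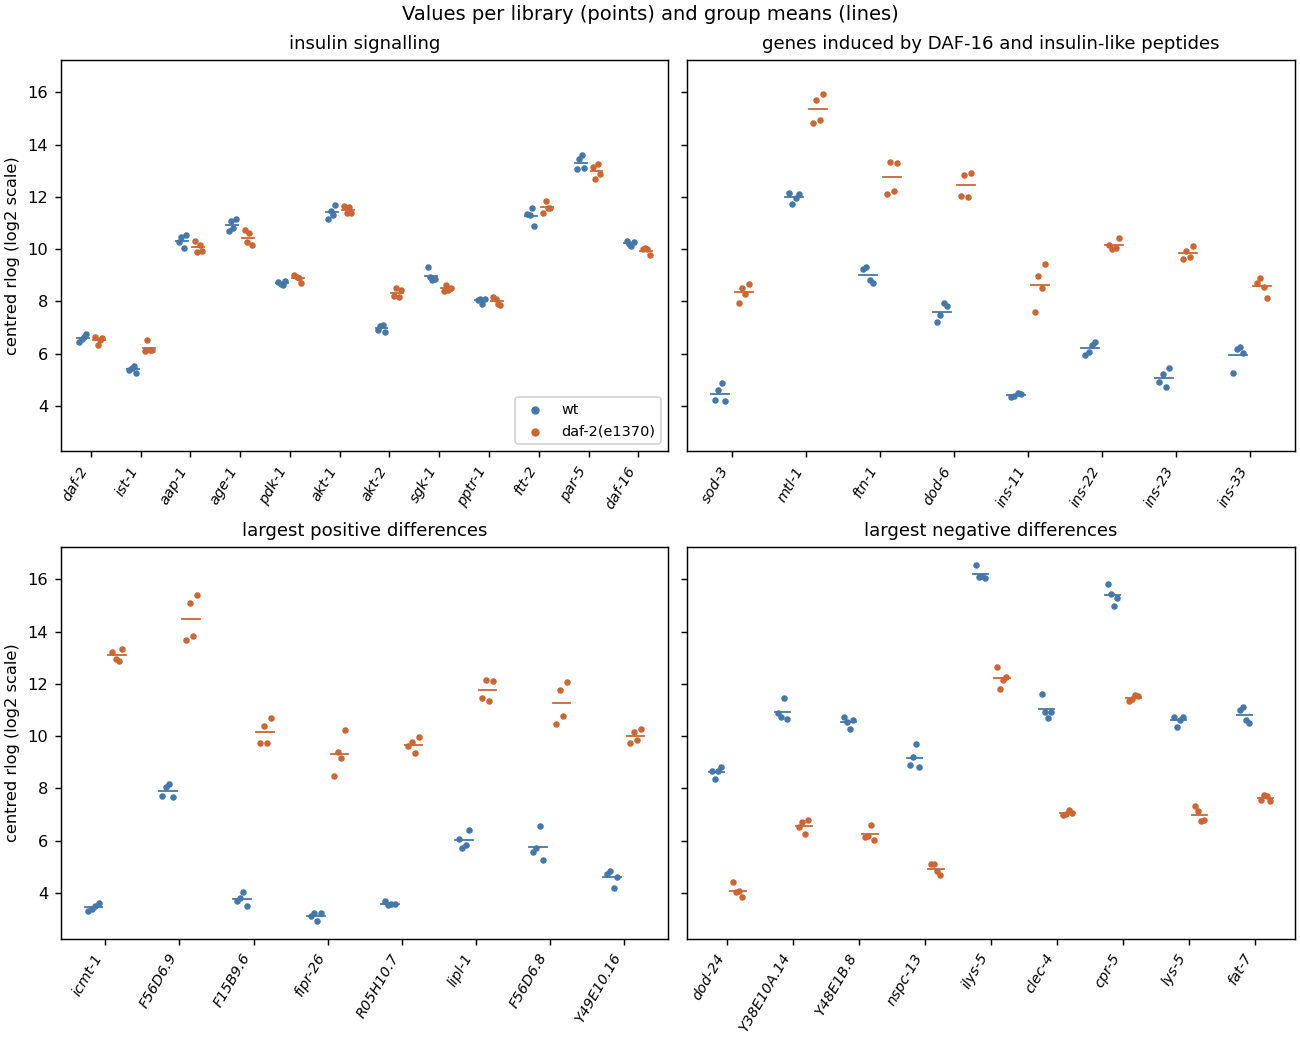
Centred rlog (y axis, log2 scale) of single genes in the 4 wt libraries (blue points) and the 4 daf-2(e1370) libraries (orange points), with lines for the group means. Of the insulin signalling genes, akt-2 and ist-1 are separated as counted genes, while the DAF-16-induced genes, the ins genes and the largest differences in either direction are wide apart.

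Other defence genes split by member. Of 16 kept antioxidant genes 3 were counted higher (sod-3, and the catalase genes ctl-1 at 0.81 ± 0.23 and ctl-2 at 0.62 ± 0.20) and 1 lower, the methionine sulfoxide reductase gene msra-1 (-0.94 ± 0.14). The shares were 18.8% and 6.25%, against 14.2% and 13.4% of all kept genes. The cytosolic and mitochondrial superoxide dismutase genes sod-1 (0.49 ± 0.18) and sod-2 (0.13 ± 0.11), chosen after their values were seen, were not counted. In the metal handling list, 3 of 13 genes were higher (23.1%) and 1 lower (7.69%). The cadmium-responsive genes went opposite ways: cdr-2 was higher by 1.57 ± 0.12 and cdr-1 was at -1.38 ± 0.18. The trehalose synthesis genes tps-1 (1.15 ± 0.13) and tps-2 (0.69 ± 0.21) were higher. The trehalase genes went opposite ways, with tre-4 at 1.07 ± 0.15 and tre-1 at -0.87 ± 0.14, and so did the water channel genes aqp-2 (2.03 ± 0.31) and aqp-8 (-1.26 ± 0.38). Of these, tps-2 and tre-1 were chosen after their values were seen. In that list 5 of 15 genes were higher (33.3%) and 3 lower (20%).

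With library medians set equal, regulators of these programmes did not exceed the share counted among all kept genes. Among 19 stress and longevity transcription factor genes, 2 were counted higher and 0 lower, 10.5% and 0% against 14.2% and 13.4%. Without centring 5 were higher, and after quantile normalization and with level-dependent centring 3 each, with 0 lower. Of 13131 kept genes 2466, 1689 and 2044 were then higher. The share higher in the list thus exceeded that of all kept genes under these scalings, though only slightly with level-dependent centring. With library medians set equal, the counted genes were these. The 2 were nhr-62, a nuclear receptor (1.10 ± 0.22), and pha-4, the FOXA factor of the pharynx (1.04 ± 0.24). Of genes chosen after their values were seen, the oxidative stress regulator skn-1 had a difference of -0.32 ± 0.07, the heat shock factor gene hsf-1 of -0.22 ± 0.16 and pqm-1, a zinc finger factor with targets opposed to those of DAF-16, of 0.41 ± 0.12. The median of the list was 0.06.

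Genes known as repressed downstream of DAF-16 were lower in part. Of 13 listed genes 9 were kept, 6 were counted lower and 0 higher, and the median was -0.59. Under the other scalings 3 or 4 were lower and 1 was higher, and the median lay between -0.75 and -0.41. The gene dod-24 had the second largest negative difference among the kept genes. It was at 8.66, 8.38, 8.68 and 8.81 in wt and at 4.43, 4.03, 4.07 and 3.83 in daf-2(e1370), -4.54 ± 0.15 or 23.3-fold lower. The intestinal peptide transporter gene pept-1 (-1.93 ± 0.25), dod-23 (-1.83 ± 0.24) and dod-19 (-1.08 ± 0.30) followed. Of the 4 listed genes that were not kept, dod-21 had a mean of 4.52 in wt and of -0.74 in daf-2(e1370).

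The largest difference among the kept genes belonged to icmt-1, which encodes an isoprenylcysteine carboxyl methyltransferase. It was at 3.31, 3.38, 3.51 and 3.62 in wt and at 13.2, 13.0, 12.9 and 13.3 in daf-2(e1370), a difference of 9.65 ± 0.13 or 802-fold on the rlog scale. The same difference was 10.2 in the animals with bcl-11(bon125) and 9.94 in those with bcl-11(bon144). Its neighbours on chromosome I were higher too: unc-38, an acetylcholine receptor subunit gene that ends less than 1 kb before icmt-1 (chrI:4897620-4900974 and chrI:4901918-4903264, WBcel235), by 3.85 ± 0.12, and F25F8.1 by 1.21 ± 0.12, both chosen after their values were seen. The levels of unc-38 were 4.64, 4.64, 4.94 and 4.70 in wt and 8.82, 8.37, 8.56 and 8.58 in the mutant. Whether the 3 genes share transcripts was not tested.

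Of the other largest positive differences, 8 belonged to genes with no common name: F45D11.14 (4.55 ± 0.37), F56D6.9 (6.60 ± 0.45), F15B9.6 (6.38 ± 0.27), R05H10.7 (6.08 ± 0.13), F56D6.8 (5.49 ± 0.48), Y49E10.16 (5.42 ± 0.19), Y51B9A.8 (4.96 ± 0.53) and F48C1.9 (4.71 ± 0.19). Levels of F56D6.9 were 7.70, 8.05, 8.16 and 7.68 in wt and 13.7, 15.1, 13.8 and 15.4 in daf-2(e1370), again with libraries 2 and 4 above libraries 1 and 3. F56D6.9, F56D6.8 and dct-8, a gene named for control by DAF-16 (4.43 ± 0.40), lie side by side on chromosome IV (chrIV:3892327-3895506, WBcel235). The secreted peptide genes fipr-26 (6.20 ± 0.37) and fipr-24 (4.64 ± 0.44), of a family named for induction by fungal infection, and scl-20, of the secreted SCP-like proteins (4.60 ± 0.38), were also among the 20. So was pud-4 (4.35 ± 0.15), whose 4 neighbours pud-1.2, pud-2.1, pud-2.2 and pud-3 on chromosome V were all counted higher. The 20 were completed by lipl-1, dod-6, ins-23, the pseudogene WBGene00018448 (4.44 ± 0.23) and the collagen genes col-74 and col-165.

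Among the 20 largest negative differences were lysozyme, lectin and protease genes. The invertebrate lysozyme gene ilys-5 was at 16.6, 16.1, 16.1 and 16.0 in wt and at 12.7, 11.8, 12.2 and 12.3 in daf-2(e1370), -3.98 ± 0.21 or 15.8-fold lower. The cathepsin B-like protease gene cpr-5 was at 15.8, 15.5, 15.0 and 15.3 against 11.4, 11.4, 11.6 and 11.5, -3.91 ± 0.18. Its relative cpr-1, an intestinal marker, was lower by 2.95 on the log2 scale, with 14.1 to 14.9 in wt and 11.1 to 11.7 in the mutant. The lysozyme gene lys-5 (-3.61 ± 0.16) and the C-type lectin genes clec-4 (-3.97 ± 0.20) and clec-66 (-3.41 ± 0.20) were of the same order, and in none of these genes did the groups come within 2 of each other.

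Others were vap-1, a secreted venom allergen-like protein (-3.36 ± 0.23), lgc-54, a ligand-gated ion channel (-3.35 ± 0.16), and the unnamed Y38E10A.14 (-4.36 ± 0.21), Y48E1B.8 (-4.29 ± 0.15), F55G11.2 (-3.69 ± 0.12), K12B6.11 (-3.43 ± 0.11) and F23F12.3 (-3.30 ± 0.09). F56A4.3, F56A4.10 and irld-53 stand at the lower end as well, but in a stretch of chromosome V (chrV:2348215-2502426, WBcel235) where 17 kept neighbours were counted lower and 10 of these shared all their values with another gene. These 3 do not share all their values with another gene. In the animals with bcl-11(bon144), the daf-2 difference was -0.87 for F56A4.3 and -1.26 for irld-53, against -5.38 and -3.94 in the comparison with wt, while F56A4.10 was at -4.13 against -3.98.

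Fat metabolism showed single genes with wide differences and small shifts elsewhere. The lysosomal lipase gene lipl-1 was at 6.08, 5.74, 5.84 and 6.39 in wt and at 11.5, 12.1, 11.4 and 12.1 in daf-2(e1370), a difference of 5.75 ± 0.25. Its paralogue lipl-2 followed with 2.82 ± 0.29, and lipl-3 (1.19 ± 0.27) and lipl-4 (1.13 ± 0.24), chosen after their values were seen, were also counted. The fatty acid oxidation genes with the largest differences were lower, with acdh-2, an acyl-CoA dehydrogenase gene, at -1.55 ± 0.27 and acs-2, an acyl-CoA synthetase gene, at -1.28 ± 0.20. Across that list of 20 genes, 5 were higher (25%) and 4 lower (20%), against 14.2% and 13.4% of all kept genes. The median was -0.29, or 0.02 after quantile normalization and 0.07 with level-dependent centring.

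The stearoyl-CoA desaturases, which put the first double bond into fatty acids, did not move together. Levels of fat-7 were 11.0, 11.1, 10.6 and 10.5 in wt and 7.57, 7.74, 7.71 and 7.51 in daf-2(e1370), -3.17 ± 0.16 or 9.02-fold lower. The palmitoyl-CoA desaturase gene fat-5 was higher by 1.10 ± 0.24, and fat-6, chosen after its values were seen, differed by 0.35 ± 0.15. The elongase genes elo-5, with means of 14.2 in wt and 13.2 in the mutant, and elo-3 (-0.92 ± 0.17) were lower. Of 14 kept desaturase and elongase genes, 1 was counted higher (7.14%) and 3 lower (21.4%), against 14.2% and 13.4% of all kept genes. The fat synthesis genes dgat-2 (0.89 ± 0.22) and fasn-1 (0.66 ± 0.19) were the 2 of 14 counted in the synthesis list. That share higher, 14.3%, was near the 14.2% of all kept genes.

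In central carbon metabolism the number of counted genes depended on the scaling. None of 6 genes of the glyoxylate cycle and gluconeogenesis was counted, and the largest differences there were -0.36 for mdh-1 and -0.36 for pyc-1. Of 19 citric acid cycle genes, 4 were lower and 0 higher, led by sucl-2 (-0.78 ± 0.10). Of 18 glycolysis genes, 2 were lower and 0 higher (ldh-1 at -0.65 ± 0.21 and gpi-1 at -0.61 ± 0.11). The shares lower were 21.1% and 11.1%, against 13.4% of all kept genes. The medians of these lists were -0.45 and -0.35. Under the other scalings 0 or 1 citric acid cycle genes and 0 glycolysis genes were lower. In the dauer steroid pathway, 3 of 8 genes were higher and 1 lower, or 1 and 1 after quantile normalization. The sterol methyltransferase gene strm-1 was higher by 1.66 ± 0.11 and daf-9, the last enzyme of dafachronic acid synthesis, by 0.66 ± 0.11, while daf-36, the first enzyme, was at -1.11 ± 0.12.

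Immune and detoxification families were mixed, with large members in both directions. Of 84 kept C-type lectins, 11 were higher and 28 lower, with clec-78 (3.34 ± 0.31) at the upper end and clec-4 at the lower. Lysozymes and antimicrobial peptides had 15 of 54 higher and 10 lower: lys-7, induced by DAF-16, was at 8.97 to 9.99 in wt and at 12.3 to 12.7 in daf-2(e1370) (3.05 ± 0.23), and the saposin-like gene spp-27 was higher by 3.13 ± 0.42, whereas lys-5 and ilys-5 were lower. Of 57 cytochrome P450 genes, 17 were higher and 7 lower, with cyp-35B1 at 3.55 ± 0.23, cyp-33C2 at 2.66 ± 0.14 and cyp-13A2 at -1.91 ± 0.10. Of 57 UDP-glucuronosyltransferase genes, 18 were higher and 14 lower, and the 4 largest, ugt-66 (3.15 ± 0.21), ugt-8 (2.49 ± 0.26), ugt-57 (2.37 ± 0.25) and ugt-40 (1.86 ± 0.08), were higher. Glutathione S-transferases had 12 of 37 higher and 7 lower, with gst-14 at 2.39 ± 0.17 and gst-39 at 1.69 ± 0.11. The share counted in these families, in either direction, was above the 14.2% and 13.4% of all kept genes except for the lectins counted higher (13.1%) and the P450 genes counted lower (12.3%).

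**Figure D3:**
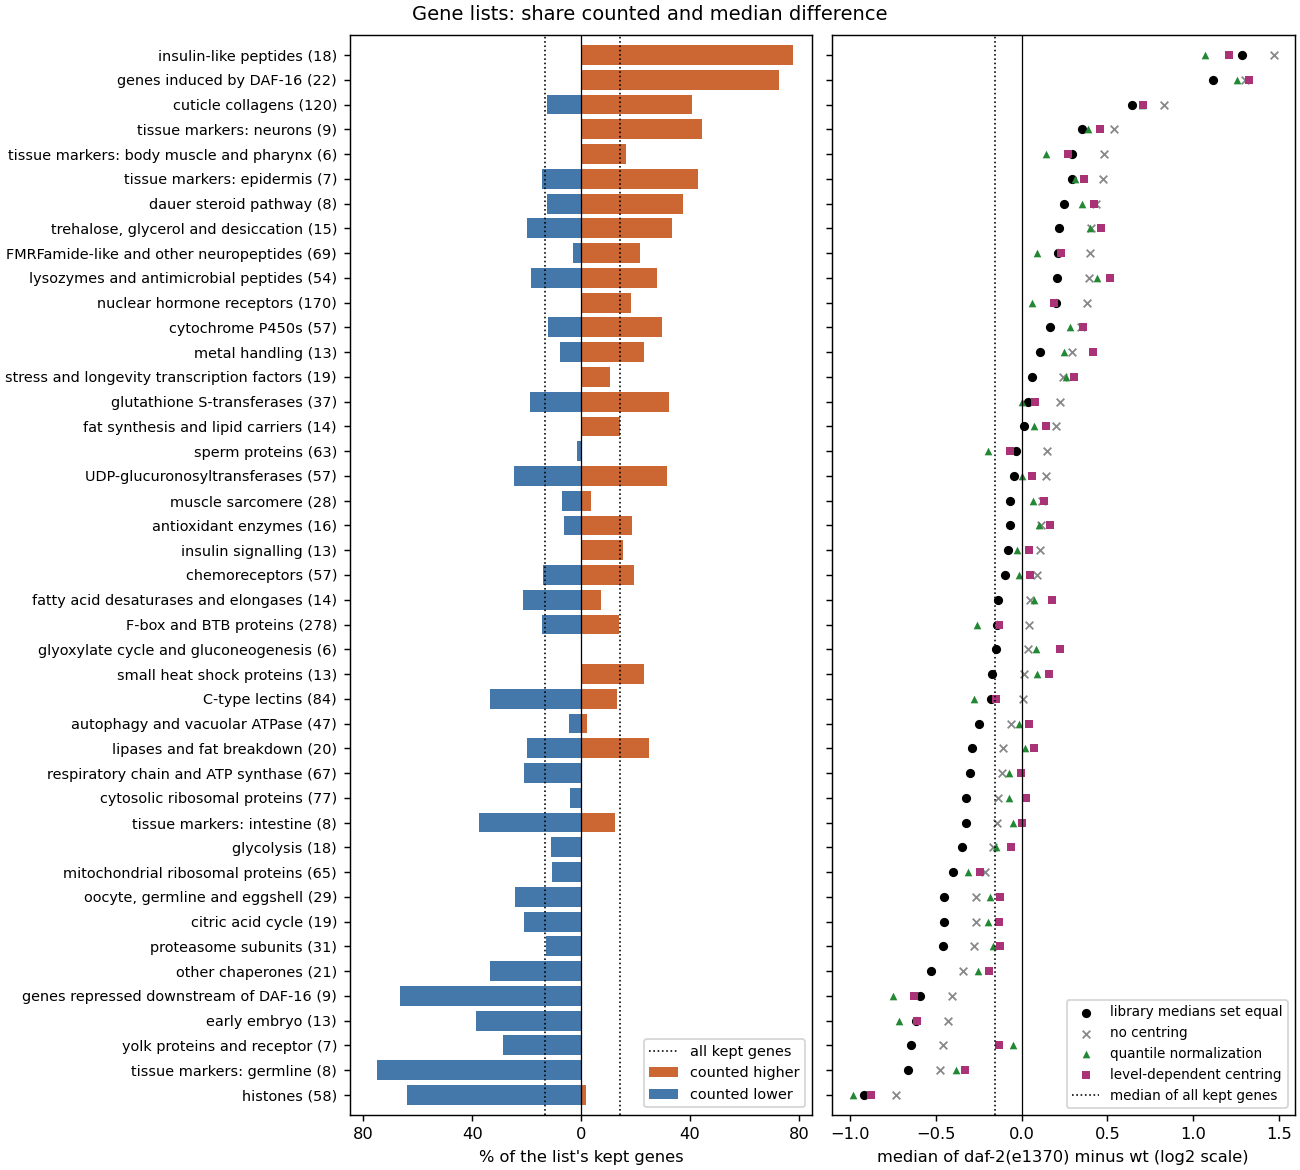
Left, for each gene list (kept genes in brackets), the percentage counted higher (orange, to the right) and lower (blue, to the left) in daf-2(e1370), with dotted lines at 14.2% and 13.4% for all kept genes. Right, the median difference of each list on the log2 scale under 4 scalings, with a dotted line at -0.15 for all kept genes; insulin-like peptides, DAF-16-induced genes and collagens stay above 0 under each scaling and histones below 0.

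Counted cuticle collagen genes are described here in 3 kinds. The cuticle is a collagen coat that is rebuilt at each larval moult, and its collagens are made in waves before each moult, with adult collagens coming last. Of 120 kept collagen genes 49 were counted higher (40.8%) and 15 lower (12.5%), against 14.2% and 13.4% of all kept genes. The median was 0.64, and between 0.70 and 0.83 under the other scalings. The first kind was higher in all 4 mutant libraries with an SD of 1 or less among them. It passes into the second kind by degree, since 17 of its 30 genes were also highest in library 4. It included col-74 (4.65 ± 0.42), col-165 (4.44 ± 0.26), col-121 (4.28 ± 0.23) and dpy-3 (3.43 ± 0.31). Of genes chosen after their values were seen, dpy-7, dpy-2 and dpy-10, which with dpy-3 are among the collagens of the annular furrows, belonged here. The furrow collagens did not all do so: dpy-8 was counted lower (-0.79 ± 0.23) and dpy-9 was not counted (0.49 ± 0.12). Levels of dpy-7 were 5.28, 5.26, 5.09 and 4.57 in wt and 8.13, 9.08, 8.33 and 8.24 in daf-2(e1370) (3.40 ± 0.27), and the differences of dpy-2 and dpy-10 were 3.23 ± 0.26 and 2.49 ± 0.27.

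The second kind was high in library 4 of daf-2(e1370). Of the 49 collagens counted higher, 19 had an SD over 1 among the mutant libraries, and all 19 were highest in library 4, by a median of 3.34 over the mean of libraries 1 and 3. For example, col-81 was at 8.47, 8.30, 8.43 and 8.77 in wt and at 9.37, 11.2, 9.23 and 13.9 in daf-2(e1370), and col-146 was at 5.44, 5.72, 5.48 and 11.2 in the mutant libraries against at most 4.26 in wt. Both were chosen after their values were seen. Of these 19 collagens 15 had a negative daf-2 difference in the animals with bcl-11(bon144), where the median was -0.46, against 1.55 with bcl-11(bon125). In bcl-11(bon144) itself, col-81 was at 8.21, 13.2, 14.6 and 8.10. Large values of these collagens thus appeared in single libraries of more than 1 genotype.

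The third kind was lower, and it included collagens of the adult cuticle. Its 15 genes were 12.5% of the kept collagens, not above the 13.4% of all kept genes. Their median wt level was 16.1, and 21.3% of all kept genes with a level above 12 were counted lower. The adult-specific collagen gene col-19 was at 15.6, 15.3, 16.2 and 15.2 in wt and at 14.2, 14.7, 14.0 and 14.7 in daf-2(e1370), -1.16 ± 0.29, and col-119 (-1.55 ± 0.21) and col-140 (-1.19 ± 0.23), chosen after their values were seen, behaved alike. Under the other scalings 8 to 12 collagens were counted lower. All 15 had a negative daf-2 difference in the animals with bcl-11(bon144) too. That sign does not set them apart from the collagens that were not counted. Of these, 28 of 34 with an SD of 1 or less and 20 of 22 with an SD over 1 were also negative there.

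Genes of moulting went with the first kind of collagen. Of 19 such genes, listed after their values were seen, 12 were counted higher and 0 lower, with a median of 1.32. After quantile normalization 11 were higher and 2 lower. The receptor-like gene ptr-4 was at 4.38, 4.39, 4.10 and 4.45 in wt and at 7.36, 8.44, 7.81 and 8.02 in daf-2(e1370) (3.58 ± 0.24). The protease inhibitor gene mlt-11 (2.79 ± 0.40), mlt-8 (2.62 ± 0.27), the apical matrix genes noah-1 (2.21 ± 0.40) and noah-2 (2.61 ± 0.39), and the nuclear receptor gene nhr-25 (1.32 ± 0.31) were counted, whereas nhr-23, the receptor that drives moulting, was not (-0.34 ± 0.20). The wt libraries were not uniform: noah-1 was at 9.51 and 8.99 in libraries 1 and 2 and at 8.02 and 8.14 in libraries 3 and 4. The astacin protease gene hch-1, an epidermal marker, varied in the same direction within wt, from 8.18 and 7.45 to 6.13 and 6.03, and lay between 9.90 and 10.8 in the mutant. A pair of families of secreted and membrane proteins of the epidermis, also listed after their values were seen, behaved alike: 14 of 26 hedgehog-related genes and 9 of 22 patched-related genes were higher and 0 lower, although 2 hedgehog-related genes were lower after quantile normalization. The largest of them were wrt-2 (3.64 ± 0.31), ptr-4 and ptr-25 (3.45 ± 0.27). Whether the 2 genotypes were at the same time after the last moult was not tested.

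The cuticlin-like genes, for another class of cuticle protein, were second by the share counted higher, with 13 of 17 higher, 3 lower and a median of 1.51. They ranged from cutl-28 (3.18 ± 0.17) and cutl-9 (2.89 ± 0.26) to cutl-18, which was at 7.42 to 7.85 in wt and at 4.66 to 5.31 in daf-2(e1370) (-2.74 ± 0.17). Pals genes, a family with members that control the response to intracellular pathogens, had 7 of 13 higher and 1 lower, led by pals-26 (3.52 ± 0.12). Claudin-like genes of the clc family had 9 of 19 higher and 1 lower, with clc-27 at 2.45 ± 0.23, clc-24 at 2.24 ± 0.22 and clc-11 at -1.82 ± 0.08. Excretory canal (exc) and variable morphology (vab) genes, named for mutant phenotypes rather than sequence, each had 5 of 10 higher and 0 lower, for example exc-13 (2.44 ± 0.08) and the PAX6 gene vab-3 (1.48 ± 0.20).

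Genes of the germ line, embryos and yolk were lower or were not counted. Of 8 germline markers 6 were counted lower and 0 higher, with a median of -0.66, and of 29 oocyte, germline and eggshell genes 7 were lower and 0 higher, with a median of -0.45. These counts rest on the scaling: under the others 1 germline marker and 1 or 2 genes of the oocyte list were lower, and the medians lay at -0.48 to -0.33 and at -0.27 to -0.13. The translational regulator gene gld-1, which holds back oocyte messages, was at 10.8, 11.0, 10.8 and 11.3 in wt and at 10.1, 9.37, 10.1 and 9.53 in daf-2(e1370), -1.22 ± 0.22. The P granule genes pgl-3 (-0.86 ± 0.25) and pgl-1 (-0.70 ± 0.21), the oocyte regulator lin-41 (-0.78 ± 0.24) and the eggshell gene cbd-1 (-0.74 ± 0.27) were counted as well. In each of these 5 genes mutant libraries 2 and 4 were below libraries 1 and 3, and wt libraries 2 and 4 above libraries 1 and 3. In whole animals, fewer germ cells or embryos and less RNA per cell cannot be told apart.

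Zygotic genes of the early embryo were the clearest of this group. All 13 kept genes had a negative difference, 5 were counted lower, and the median was -0.61. Under the other scalings 3 to 7 were lower and the median lay between -0.71 and -0.43. The endoderm genes end-3 and end-1 were at -1.43 ± 0.10 and -0.75 ± 0.13. Levels of end-3 were 5.54, 5.36, 5.39 and 5.79 in wt and 4.11, 4.02, 4.13 and 4.13 in the mutant. Sperm protein genes, in contrast, varied more within a genotype than between genotypes: 0 of 63 were counted higher and 1 lower, spe-48 (-0.67 ± 0.09), and the list's mean ranged from 4.91 to 6.67 in wt and from 5.16 to 7.30 in daf-2(e1370), highest in library 4.

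Of the yolk genes, 2 of 7 were lower and 0 higher, with a median of -0.64 that was -0.05 after quantile normalization. The vitellogenin gene vit-1 was at 18.6, 17.3, 17.8 and 18.1 in wt and at 16.0, 16.4, 15.8 and 16.1 in daf-2(e1370), -1.88 ± 0.31 or 3.68-fold lower, and vit-4 was at -1.21 ± 0.34. In the animals with bcl-11(bon125) and bcl-11(bon144) the vit-4 difference was -0.54 and -0.48. The genes vit-2 (-0.30 ± 0.31), vit-5 (-0.55 ± 0.32) and vit-6 (0.06 ± 0.31), chosen after their values were seen, overlapped between the groups.

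**Figure D4:**
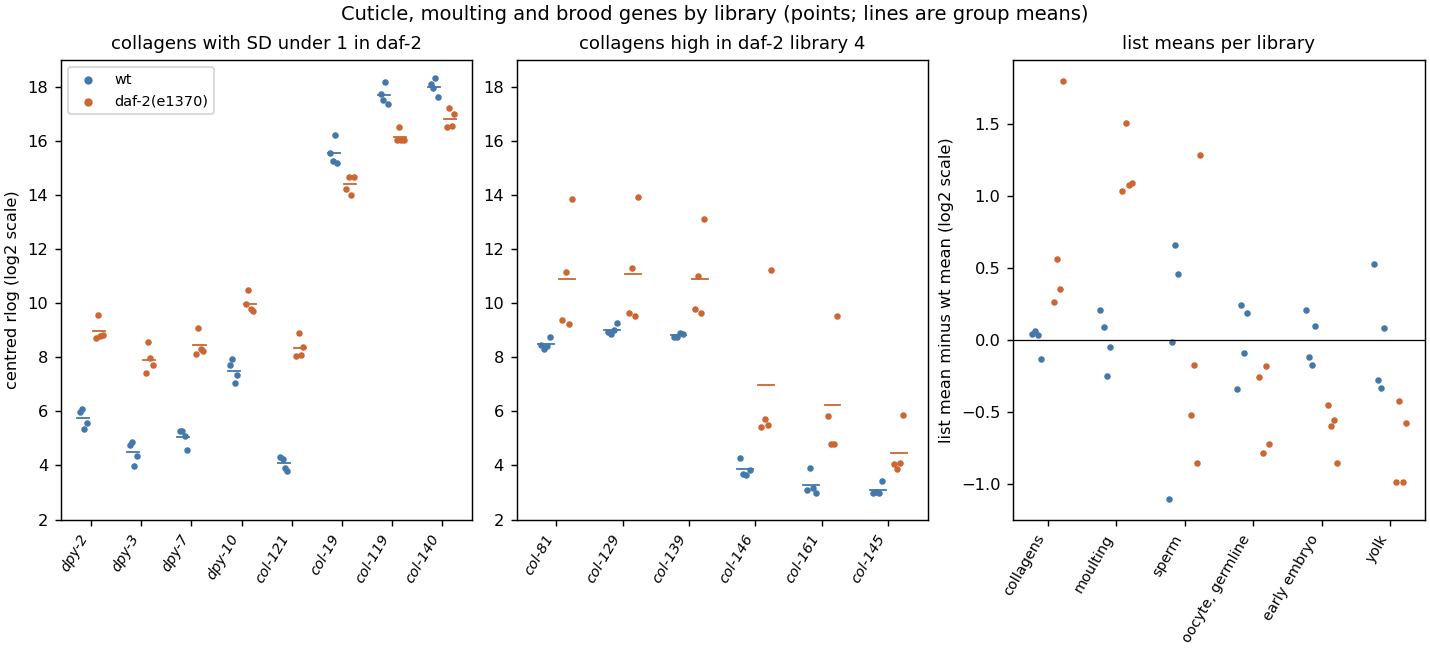
Left and middle, centred rlog (y axis, log2 scale) of collagen genes in the 4 wt (blue) and 4 daf-2(e1370) libraries (orange), with lines for group means. Right, the mean of each gene list per library minus the mean of the wt libraries; the moulting list lies above wt in all 4 mutant libraries, the collagen and sperm lists are highest in mutant library 4, and the early embryo list lies below wt.

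Histone genes were lower as a group. Of 58 kept histone genes 37 were counted lower and 1 higher, with a median of -0.92 that stayed between -0.98 and -0.73 under the other scalings. The lowest named members, his-58 and his-66 (-1.76 ± 0.09), had the same values as each other, as did his-45 and his-55 (-1.63 ± 0.10), and 29 of the 58 shared their values with another gene, so single copies are uncertain. A run of 14 neighbours on chromosome V (chrV:8828165-8898539, WBcel235) and a run of 5 on chromosome IV (chrIV:7485834-7501437) were counted lower throughout. The mRNAs of replication-dependent histones mostly lack the poly(A) tail that primed these libraries, and the part of this in the result was not tested.

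The family with the largest share counted lower was nspc, a nematode-specific family of small peptides, with 15 of 16 lower, 0 higher and a median of -2.13. Levels of nspc-13 were 8.90, 9.22, 9.70 and 8.83 in wt and 5.11, 5.09, 4.84 and 4.68 in daf-2(e1370), -4.23 ± 0.22. Next to it on the X chromosome, nspc-12 was at -4.06 ± 0.21, and nspc-18 was at -3.74 ± 0.10. Further members outside the kept genes, nspc-16 and nspc-19, had means of 6.12 and 6.27 in wt against 1.62 and 2.82 in the mutant. Acid phosphatase genes of the intestine had 5 of 10 lower and 1 higher, led by pho-7 (-1.32 ± 0.20) and pho-1 (-1.20 ± 0.08).

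The remaining families at the lower end belong to housekeeping functions, where shifts were small and depended on the scaling. Translation initiation factor genes had 12 of 25 lower and 0 higher, with eif-2alpha at -1.42 ± 0.16, eif-4A3 at -1.06 ± 0.10 and eif-3.B at -0.99 ± 0.12. Kinesin-like genes had 5 of 10 lower, led by the near-identical pair klp-15 (-1.05 ± 0.25) and klp-16 (-1.02 ± 0.22). RNA-binding rbm genes had 6 of 13 lower, with rbm-39 at -0.86 ± 0.16, and the Integrator complex genes had 5 of 11. Medians were -0.46 for 31 proteasome subunits, -0.40 for 65 mitochondrial ribosomal proteins, -0.32 for 77 cytosolic ribosomal proteins and -0.30 for 67 respiratory chain genes. With level-dependent centring these medians were -0.13, -0.24, 0.03 and -0.01. The ATP synthase gene atp-1 was at 15.4, 15.3, 15.2 and 15.3 in wt and at 14.3, 14.5, 14.4 and 14.4 in the mutant (-0.87 ± 0.06). In these 4 lists 0 genes were counted higher, and 4, 7, 3 and 14 were counted lower. With level-dependent centring 0, 2, 0 and 5 were lower, and 1 cytosolic ribosomal gene was higher. The median wt levels of the 4 lists were 11.4, 8.43, 12.8 and 10.3. Of all kept genes, 7.40% were higher and 13.0% lower at levels from 8 to 10. The shares were 3.72% and 16.1% from 10 to 12, and 5.58% and 21.3% above 12. Of 47 autophagy and vacuolar ATPase genes 1 was higher, the selective autophagy receptor gene sqst-1 (1.20 ± 0.19), and 2 were lower.

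Of 170 kept nuclear hormone receptor genes, 31 were higher (18.2%) and 0 lower, with a median of 0.20. Without centring 49 were higher and 0 lower, and after quantile normalization 19 were higher and 9 lower, with a median of 0.06. The largest were nhr-91 (1.98 ± 0.18) and nhr-206 (1.71 ± 0.17). Neuropeptide genes had 15 of 69 higher (21.7%) and 2 lower (2.90%), or 10 and 7 after quantile normalization. The median wt levels of the receptor and neuropeptide lists were 5.98 and 5.36. Among all kept genes with a level from 4 to 6, 27.9% were higher and 12.8% lower. From 6 to 8 the shares were 18.0% and 11.4%. The gene flp-34 was at 3.94, 4.13, 3.91 and 4.15 in wt and at 6.81, 7.04, 6.57 and 6.74 in daf-2(e1370), 2.76 ± 0.12, and nlp-51 (1.34 ± 0.21) and nlp-80 (1.31 ± 0.09) followed. Of 9 neuronal markers 4 were higher and 0 lower, led by the synaptic gene unc-10 (1.37 ± 0.10), and in the muscle list of 28 genes only the troponin I gene tni-1 (1.37 ± 0.17) was counted higher, with act-2 (-0.92 ± 0.17) and tni-3 (-0.72 ± 0.24) lower. Intestinal markers went both ways, with the esterase gene ges-1 higher (1.13 ± 0.23) and cpr-1, the aspartyl protease gene asp-1 (-1.45 ± 0.20) and pept-1 lower. Of 278 F-box and BTB genes 39 were higher and 40 lower. These shares, 14.0% and 14.4%, were near the 14.2% and 13.4% of all kept genes. Without centring 52 were higher and 10 lower, and after quantile normalization 26 and 70. Single members such as fbxc-20 (2.87 ± 0.19) and btb-16 (2.50 ± 0.26) differed widely. Of 57 chemoreceptor genes, 11 were higher (19.3%) and 8 lower (14.0%), with srr-6 at 2.44 ± 0.36 and sri-40 at -2.32 ± 0.22.

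Counted genes were unevenly spread over the chromosomes. On the X chromosome 22.2% of 1859 kept genes were higher and 9.41% lower, and on chromosome V the shares were 18.1% and 15.0% of 2498. On chromosomes I, II, III and IV, 9.65% to 13.2% were higher and 12.7% to 14.1% lower. The median difference was 0.15 on X and between -0.23 and -0.11 on the other nuclear chromosomes. Altogether 51 runs of at least 4 neighbouring kept genes were counted in the same direction. Besides those named above, 7 genes from F21C10.7 to pitr-3 on chromosome V and 7 genes around dpy-7 on X were all higher. Adjacent genes can share reads in libraries without strand, and the runs were not tested.

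**Figure D5:**
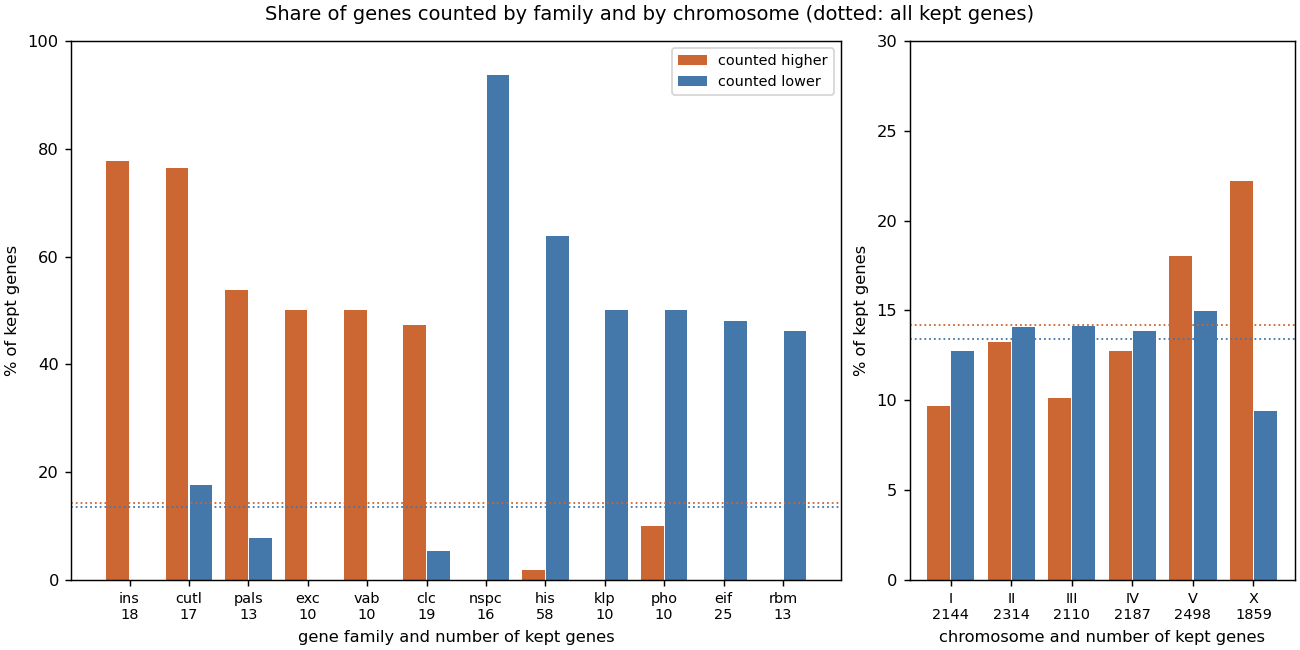
Percentage of kept genes (y axis, from 0) counted higher (orange) and lower (blue) in daf-2(e1370), for the 6 gene families with the largest share higher and the 6 with the largest share lower (left) and for each nuclear chromosome (right), with the number of kept genes under each name. Dotted lines mark 14.2% and 13.4%; ins and nspc stand at the 2 ends, and X has the largest share higher of the chromosomes.

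The same difference was then read in the bcl-11 mutants, whose 16 libraries entered the filter on low values but not the count, and come from the same 2 tables with the same offset. Rlog also draws the libraries of each table together for weakly expressed genes. A shared direction is therefore partly built in and is not an independent replication. With bcl-11(bon125), the differences across 13131 genes correlated with those above at r = 0.964, and 1866 of the 1868 genes counted higher and 1750 of the 1753 counted lower had the same direction. With bcl-11(bon144), r was 0.938, and 1846 and 1749 genes had the same direction. The genes counted higher had a median of 1.09 and 1.01 with these alleles, and those counted lower had -0.83 and -0.76. For genes named above, the difference of sod-3 was 4.05 and 4.23, that of dod-24 was -4.55 and -4.25, that of fat-7 was -3.27 and -3.15, and that of akt-2 was 1.35 and 1.29. Others moved, such as F56A4.3, irld-53 and vit-4. The list median of the collagens was 0.46 with bon125 and -0.48 with bon144, but single bcl-11(bon144) libraries were far apart. In that single mutant, col-81 was at 13.2 and 14.6 in libraries 2 and 3, against 8.21 and 8.10 in libraries 1 and 4. Likewise, col-145 was at 6.17 and 13.1 against 2.95 and 3.11. The double mutants had close col-81 means, 9.96 for bon125 and 10.1 for bon144. Both genes were chosen after their values were seen, and a difference between the alleles was not tested. No gene counted in wt was separated without overlap in the opposite direction with either allele.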

How the data were processed

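Whole-animal RNA had been made into SMART-Seq2 libraries, primed on poly(A) and without strand. Per the submitters' processing notes, bcl2fastq (2.20), kallisto (listed as version 048.0) and the build WBcel235 were used. The authors deposited 2 tables of regularized log values on a log2 scale, 1 for each background and 12 libraries in each. The tool that made these log2 values is not given in the sources used here. Transcript counts were not used, so depth and counting error are unknown. From the tables, genes with a mean of at least 3 in both were kept, the 8 libraries were set to 1 median, and mean differences, standard errors and overlap were computed with Python 3.11.15, numpy 2.4.6, pandas 2.3.3 and statsmodels 0.14.6 (lowess span 0.3). The steps were tested on simulated data. No test was run between the tables. The labels do not say whether replicates were separate cultures, so the spread may be partly technical.

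All 20549 gene IDs were found in the Ensembl 115 annotation, and 19332 had a gene name, of which 192 came from a RefSeq table. Genes were named by rule: the 13 insulin signalling genes, the 20 largest differences in each direction that also had 1 direction in all 4 same-numbered pairs and shared no values with another gene, up to 4 counted members of each list and up to 3 of each family described. The members, the 43 gene lists and the rules were chosen with earlier results of these data known, and 3 lists (moulting, hedgehog-related, patched-related) were added after values were seen. The labels give the batch with the replicate number, which is the source of the pairing. Same-numbered wt and daf-2(e1370) libraries did not deviate together, with a mean correlation of deviations of -0.10 (-0.30 to 0.09) against 0.04 for different numbers. Promoter motifs were not analysed here. The values of 1 gene named by rule are not reported here.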

Additional observations from a re-analysis of the deposited data

Results flagged for a closer look

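Single libraries that stood apart from the other 3 of their group are given here by Dixon's test. Of 106 pairs of a gene and a group 5 stood apart, where chance gives about 1 in 20. In daf-2(e1370), ist-1 was at 6.52 in library 2 against 6.12 to 6.15, daf-16 at 9.76 in library 4 against 9.99 to 10.0, Y51B9A.8 at 9.71 in library 4 against 7.49 to 7.81, nspc-12 at 4.79 in library 4 against 4.90 to 4.92, and F56A4.10 at 3.41 in library 2 against 3.08 to 3.09. Of 86 pairs of a list and a group 6 stood apart. The list mean of the fat breakdown genes was 10.5 in daf-2(e1370) library 2, that of the nuclear hormone receptors was 6.44 in the same library, and that of the autophagy and vacuolar ATPase genes was 9.62 in daf-2(e1370) library 4. In wt, the list mean of the collagens was 7.47 in library 4, that of the autophagy and vacuolar ATPase genes 9.94 in library 1, and that of the muscle and pharynx markers 9.10 in library 3, where the other libraries lay between 8.28 and 8.35.

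Genes outside the kept set held large differences as well. Below the minimum in 1 of the tables, the cathepsin B-like protease gene cpr-2 had a mean of 2.08 in wt and of 12.2 in daf-2(e1370), a difference of 10.1, while its relatives cpr-1 and cpr-5 were lower in the mutant. C06H5.14 and H39E23.3 differed by 10.1 and 9.93, F17B5.1 by 7.40, and clec-13 and clec-15, which share all their values, by 7.41. The lectin gene clec-10 went the other way, with -8.11. Listed in the daf-2(e1370) table only, Y39G8B.7 had a level of 8.57, scl-19 of 8.00, D1086.9 of 7.25 and clec-18 of 7.12, and no difference from wt can be given for these 4.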

How the results depend on the processing

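The numbers of genes counted higher and lower, 1868 and 1753, were 2466 and 913 without centring, 1193 and 952 with a minimum mean of 5, 3823 and 2971 without a minimum, and 1008 and 491 with a difference of 1 as the size that counts. Quantile normalization gave 1689 and 1647, and dropping each library in turn gave 1797 to 2000 and 1572 to 2067. All 1868 genes counted higher were also higher without centring, and all 913 genes that were lower without centring were among the 1753. This nesting was fixed in advance, since every daf-2(e1370) library had a higher median than every wt library. Of 43 list medians 16 were positive, against 27 without centring and 28 with level-dependent centring, and of 126 family medians 44 were positive, against 78 without centring. The median of all kept genes moved from -0.15 to 0.03 without centring, so these counts follow a shift that all genes share. Altogether 18 list medians and 5 of 212 named gene differences changed sign under some setting, none of a counted gene. Without centring no counted gene could change sign, since the shift of 0.18 is smaller than the size that counts. Settings chosen after seeing the data were leaving out daf-2(e1370) libraries 2 and 4 together (1809 and 1395) and leaving out collagen, moulting, hedgehog- and patched-related and sperm genes (1785 and 1737).

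With the replicate number as a block, where 1 direction across the 4 number-matched pairs replaced the rule on overlap, 1931 genes were higher and 1833 lower. This rule is looser by construction, since genes without overlap always pass it. Depth limits none of these counts by a known amount, because no counts were used. The share of promoters with DAF-16 binding motifs, planned as a description, was not run.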

Other observations

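Of the genes listed in both tables, 5358 were not kept: 1002 fell short in the wild-type table only, 323 in the daf-2(e1370) table only and 4033 in both. A further 831 genes were listed in the wild-type table only and 1229 in the daf-2(e1370) table only. Genes that were low in wt and reached a level in daf-2(e1370) included the lectin gene clec-61, with a difference of 6.81, the aspartyl protease gene asp-18 (6.51), the secreted protein gene scl-12 (6.50), the collagen gene col-36 (5.64), the cytochrome P450 gene cyp-13A11 (5.35), dao-6 (5.35) and the neuropeptide-like gene nlp-39 (5.23). Genes that were low in daf-2(e1370) included math-14 (-5.11), nspc-16 (-4.50) and the lectin gene clec-31 (-4.38). All of these were chosen after their values were seen.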
